A study of Mus musculus with 9 samples.

Results

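The genes for the proteins of the cytosolic and the mitochondrial ribosome were followed through the differentiation of 3T3-L1 cells, a mouse preadipocyte line of embryonic fibroblast origin. The members were chosen by gene symbol alone. Symbols starting with Rpl or Rps and a number, together with Rplp0, Rplp1, Rplp2 and Rpsa, formed the cytosolic group, with symbols starting with Rps6k (kinases of a ribosomal protein) left out, and symbols starting with Mrpl or Mrps and a number formed the mitochondrial group. The rule found 172 of the 19094 genes listed, of which 95 were cytosolic and 77 mitochondrial. The cytosolic group held all 77 standard subunits listed for this work, and the others were paralogs, pseudogenes or retrogenes and Rps19bp1, which encodes a binding partner of a subunit and not a subunit.

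RNA-seq was made at day 0 (confluent preadipocytes before the cocktail of dexamethasone, IBMX and insulin), at day 4 (2 days of cocktail, then 2 days of insulin) and at day 8 (4 more days of insulin), with 3 samples at each day and with no genetic change stated for any of them. Each sample was a pool of RNA from cells of its stage, and the labels do not say that the samples of a day came from separate cultures, so p-values measure the spread between these samples, which may be technical. The extraction text of the labels speaks of DRG and not of this cell line. Of 11 sensory neuron markers 10 were listed and Pou4f1 was not, and 2 were above 1 FPKM (fragments per kilobase of transcript, scaled to the depth of the library) in any sample. The most abundant was P2rx3, at 26.7, 20.04 and 22.5 FPKM on day 0, 5.38, 5.11 and 4.65 FPKM on day 4 and 17.8, 18.3 and 18.6 FPKM on day 8. The 10 adipocyte markers summed to between 144 and 149 FPKM on day 0, between 6162 and 8835 FPKM on day 4 and between 9149.5 and 9968 FPKM on day 8. All 10 preadipocyte or fibroblast markers were above 1 FPKM in at least 1 sample. They summed to between 9052 and 9540 FPKM on day 0, between 6009 and 6606 FPKM on day 4 and between 9164 and 9317 FPKM on day 8. The most abundant of them was Vim, and the sum hides a split. Between day 0 and day 8, 5 of the 10 rose and 4 fell at an edgeR adjusted p under 0.05, beside 34.8% and 36.2% of all genes tested. The part of these markers in the results was not tested. The shallowest library held 18216114 and the deepest 20452144 expected counts. Samples of 1 day differed by a mean chi-square per gene of between 2.40 and 10.7, where sampling noise alone gives about 1, and each was counted as 1 sample. The widest pair was day 4 replicates 1 and 3, and on day 0 replicate 2 stood at 6.96 and 4.61 from the other two, which were 3.18 apart.

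The cytosolic ribosome reads the messages made in the nucleus. Its protein genes are among the most strongly transcribed in a growing cell, and their messages carry a pyrimidine tract at the start through which growth signals set their translation. The mitochondrial ribosome is built from a separate set of nuclear genes, whose proteins are imported into the organelle, and translates only the subunits of oxidative phosphorylation encoded in mitochondrial DNA. Preadipocytes are known to gain mitochondria as they turn into adipocytes. The core proteins of both ribosomes descend from common ancestors, so that many cytosolic members have a mitochondrial counterpart, while other mitochondrial members have none.

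Promoter sequences are shown because some short motifs stood in a larger share of the members' promoters than of all promoters, a feature that the rule by symbol did not use. For 57 standard cytosolic and 68 mitochondrial members, RefSeq start sites on GRCm38.p6 gave 300 bases each, from 250 before to 50 after the start. The polypyrimidine initiator was searched on the gene's strand as CCTTTC or as CCTTTT, with C or T allowed as the first letter, within 50 bases of the start on either side, and stood in 57.9% of cytosolic, 10.3% of mitochondrial and 13.2% of all 27025 promoters. The core of the ETS factors, CCGGAA on either strand of the 300 bases, stood in 50.9% of cytosolic, 55.9% of mitochondrial and 15.2% of all promoters. A core of YY1, AAGATGG on either strand, stood in 15.8%, 19.1% and 6.46%, and the letters GCGCATG of an NRF1 site, on either strand, stood in 12.3%, 11.8% and 4.03%. The E-box CACGTG, the site of the Myc family, stood in 8.77% of cytosolic, 7.35% of mitochondrial and 7.24% of all promoters. Matches of different motifs can overlap each other, and a match is a description of the sequence and not a site of binding. The examples below run 5′ to 3′ on the gene's strand from 60 bases before the start to the first 30 bases of the transcript. They are from the 3 members of each group with the largest day 8 against day 0 change in the group's direction among those that held its motif in this window, with matched letters in capitals. Mrpl34 lies on the plus strand at chr8:71464866-71464955, Mrpl53 on the plus strand at chr6:83109048-83109137, Rpl12 on the plus strand at chr2:32961652-32961741 and Rps12 on the minus strand at chr10:23787180-23787269. The capitals of Mrpl34 and Mrpl53 are the ETS core, which Mrpl53 held on both strands, those of Rpl12 are the initiator, and those of Rps12 are the NRF1 letters and then the initiator.
Mrpl34: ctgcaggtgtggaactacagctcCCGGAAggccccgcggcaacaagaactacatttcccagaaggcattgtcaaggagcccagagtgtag
Mrpl53: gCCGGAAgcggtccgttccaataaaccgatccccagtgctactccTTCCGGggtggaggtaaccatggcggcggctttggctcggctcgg
Rpl12: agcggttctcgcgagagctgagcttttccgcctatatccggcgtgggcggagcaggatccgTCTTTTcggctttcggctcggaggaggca
Rps12: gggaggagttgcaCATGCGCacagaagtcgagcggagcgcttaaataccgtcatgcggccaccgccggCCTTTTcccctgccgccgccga

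The 2 groups moved in opposite directions over differentiation. The summed level of the cytosolic members was 15.1%, 15.2% and 15.5% of all FPKM in the day 0 samples, 12.9%, 13.2% and 13.5% on day 4, and 11.7%, 11.4% and 11.6% on day 8. The means were 15.3% ± 0.186, 13.2% ± 0.261 and 11.6% ± 0.175 (SD, n = 3 per day). The summed level of the mitochondrial members was 0.540%, 0.567% and 0.552% of all FPKM on day 0, 0.688%, 0.722% and 0.751% on day 4, and 0.733%, 0.737% and 0.722% on day 8. For both groups every day 0 sample lay outside the range of the later days. For the cytosolic group the 3 days did not overlap, whereas for the mitochondrial group days 4 and 8 did. The mitochondrial sum was 3.62% ± 0.0859 of the cytosolic sum on day 0, 5.45% ± 0.132 on day 4 and 6.32% ± 0.142 on day 8. Of the expected counts, which are not divided by length, the cytosolic members held 4.94%, 4.41% and 3.82% and the mitochondrial members 0.247%, 0.338% and 0.338% on the 3 days. In bulk samples fewer cells of a type and less RNA per cell cannot be told apart. The 10 markers of cycling cells moved beside these sums, from between 198 and 260 FPKM in sum on day 0 to between 124 and 132 FPKM on day 4 and between 137 and 149 FPKM on day 8, and their part in the result was not tested.

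**Figure D1:**
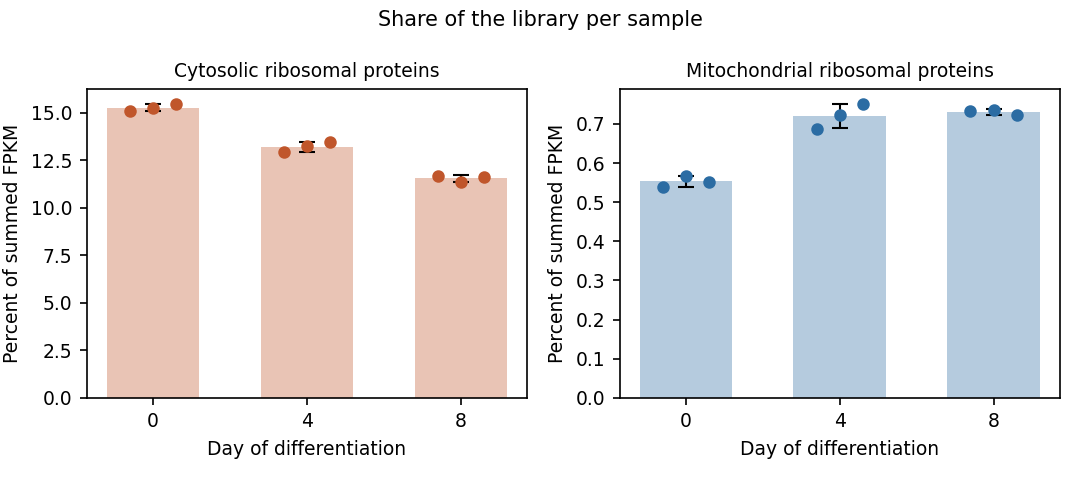
Percent of the summed FPKM of each sample held by the 95 cytosolic (left) and the 77 mitochondrial (right) ribosomal protein genes at days 0, 4 and 8. Points are samples, bars are means and error bars are SDs (n = 3); the cytosolic mean fell from 15.3% to 11.6% while the mitochondrial mean rose from 0.553% to 0.731%.

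Differences between days were tested gene by gene with edgeR's quasi-likelihood test over all 13154 genes that passed a filter on low counts, with Benjamini-Hochberg adjustment over all of them. The test covered 90 of the 95 cytosolic and all 77 mitochondrial members. The 5 that did not pass, Rpl3l, Rpl10l, Rpl32l, Rpl39l and Rps4l, had mean levels between 0.0044 and 0.238 FPKM. A gene is said to rise or fall at an adjusted p under 0.05. The comparisons share samples of each day, so that they are not independent of each other, and each answers its own question, namely the early phase (day 4 against day 0), the late phase (day 8 against day 4) and the whole process (day 8 against day 0).

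In the early phase, 68 of the 77 mitochondrial members rose and none fell, with a median log2 fold change of 0.50, which is a median fold of 1.41. Across all genes tested 35.5% rose and 33.7% fell, with a median of 0.02. None of the mitochondrial members fell at an unadjusted p under 0.05 either, nor by DESeq2, edgeR's exact test or limma. The 9 that did not pass were Mrpl2, Mrpl13, Mrpl23, Mrpl35, Mrpl40, Mrpl47, Mrpl54, Mrps15 and Mrps18b. Of the cytosolic members 12 rose, 37 fell and 41 did not pass, with a median of -0.07. With library sizes taken as they are, 8 rose and 49 fell, with a median of -0.13. The median was -0.03 without day 4 replicate 1 and -0.04 without day 0 replicate 3, and its range with 1 sample left out was -0.09 to -0.03. Among the 77 standard subunits 9 rose and 32 fell. A change of more than 2-fold was called in 3 mitochondrial members, all higher (Mrpl12, Mrpl20 and Mrpl34), beside 9.77% of all genes. With library sizes taken as they are or by limma the count was 2, and Mrpl34 lay just below 2-fold. In the other direction 1 cytosolic member was called, the pseudogene Rpl14-ps1, beside 7.98% of all genes.

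In the late phase most mitochondrial members did not pass. Of the 77, 70 had a log2 fold change above the cytosolic median of -0.14, as had most of all genes tested, whose median was -0.01. Of the cytosolic members 51 fell, 1 rose (Rpl14-ps1) and 38 did not pass, with a median of -0.14, beside 22.7% of all genes lower and 22.5% higher and a median of -0.01. Of the standard subunits 49 fell and none rose. None rose at an unadjusted p under 0.05 either, nor by DESeq2, edgeR's exact test or limma. The falls numbered 43 by DESeq2, 49 by edgeR's exact test and 57 by limma on log2(FPKM + 1). The count of cytosolic falls was 30 without day 8 replicate 2 and 31 without day 4 replicate 2. Of the mitochondrial members 11 rose, 3 fell and 63 did not pass, with a median of 0.03, which turned to -0.02 with library sizes taken as they are, when 6 rose and 6 fell. Without day 4 replicate 1 the median was -0.01, with 4 rising and 7 falling. There were 6 rising without day 8 replicate 1, and 1 falling without day 4 replicate 2 or day 8 replicate 3. The largest late change of a mitochondrial member was 0.43, and among the cytosolic members 1 was called lower (Rps27rt), beside 4.24% of all genes higher and 2.81% lower.

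Over the whole process, 70 of the 77 mitochondrial members rose and none fell by edgeR, and none fell at an unadjusted p under 0.05 or by DESeq2, edgeR's exact test or limma. The median log2 fold change was 0.55, a median fold of 1.46. Of the cytosolic members 61 fell, 3 rose and 26 did not pass, with a median of -0.23, a fall of 14.6%. Across all genes tested 34.8% rose and 36.2% fell, with a median of -0.02. Among the standard subunits 55 fell and 2 rose. Called above 2-fold were 4 mitochondrial members, all higher (Mrpl12, Mrpl34, Mrpl20 and Mrpl42), beside 10.3% of all genes, and 2 cytosolic members lower (Rps27rt and Rps19-ps3), beside 7.70% of all genes. With library sizes taken as they are, or by limma on log2(FPKM + 1) or log2(FPKM + 0.1), 2 mitochondrial members were called above 2-fold, and Mrpl20 and Mrpl42 lay below it. The cytosolic calls numbered 1 by limma and 0 without day 8 replicate 2. Each of the 77 mitochondrial fold changes lay above the upper quartile of the cytosolic ones, 53 lay above every cytosolic member, and no cytosolic member reached the mitochondrial median. That upper quartile was -0.09 and the highest cytosolic log2 fold change 0.34. Across all genes tested the median was -0.02 and the upper quartile 0.39. Most of all genes therefore also lay above the first of these values, and a part of them above the second. With library sizes taken as they are, the median of all genes shifted by -0.11. The cytosolic median was then -0.34 and the mitochondrial median 0.44, and the distance between them is 0.78 with either scaling, since a scaling moves both groups alike.

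**Figure D2:**
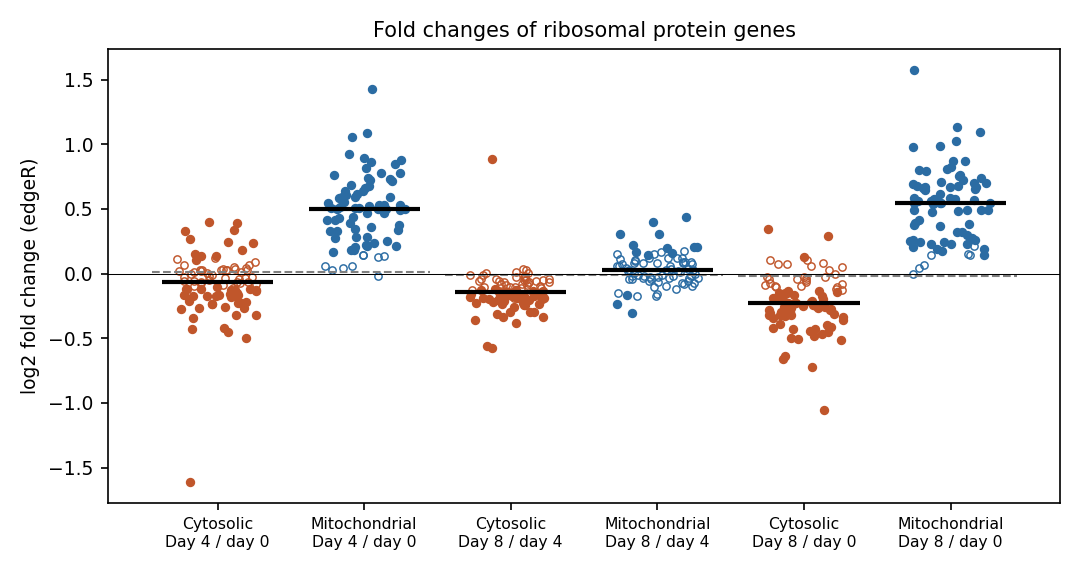
Log2 fold changes (edgeR) of the cytosolic (orange) and mitochondrial (blue) members in the early phase, the late phase and the whole process; each point is a gene, filled at an adjusted p under 0.05, black lines are group medians and dashed grey lines the medians of all 13154 genes tested. Rps27rt, listed at 0 in every day 8 sample, is left out; the mitochondrial points of the early phase and the whole process sit around 0.50 and 0.55 and the cytosolic ones around or below 0.

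The large and the small subunit moved alike within the mitochondrial group, with whole-process medians of 0.52 for 48 large and 0.56 for 29 small subunit members, as named by their symbols. In the cytosolic group the medians were -0.16 for 53 large and -0.28 for 37 small subunit members. Of the standard small subunit proteins 26 of 31 fell and all 31 had a fold change below 0, against 29 of 46 that fell and 2 that rose in the large subunit, beside 36.2% of all genes tested that fell and 34.8% that rose. The difference between the subunits was not tested.

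The levels of the members spread more widely within a group than they moved between days. The median level per length of the standard cytosolic subunits was 795 FPKM on day 0, 705 FPKM on day 4 and 636 FPKM on day 8, and that of the mitochondrial members was 25.5, 36.0 and 33.7 FPKM. On day 0 the standard cytosolic subunits ranged from 26.0 to 2716 FPKM and the mitochondrial members from 5.55 to 235 FPKM. By the mean over all 9 samples, the highest cytosolic members were Rplp1, Rps2 and Rpl41, and the lowest tested were Rps27rt, Rps19-ps3 and Rps19bp1. By the same mean, the highest mitochondrial members were Mrps6, Mrpl12 and Mrps21 and the lowest were Mrpl19, Mrpl55 and Mrpl1. Single days gave other ranks. Among the highest, below the first, Rplp0 stood above Rpl41 on day 0 (2179 against 2018 FPKM) and day 4 (1841 against 1788 FPKM). On day 0 Mrpl52 came second among the mitochondrial members at 80.8 FPKM. Among the lowest, Mrpl55 was last on day 0 at 5.55 FPKM, and Mrpl17 (6.327 FPKM) lay below Mrpl19 (6.333 FPKM). On day 4 Rpl14-ps1 at 22.5 FPKM lay below Rps27rt and Rps19bp1 at 24.9 and 25.2 FPKM. The order within a group was much the same on the first and last day, with a Spearman correlation of levels across genes of 0.982 over 90 cytosolic and 0.962 over 77 mitochondrial members, both read from the same libraries. Some low levels go with a long listed transcript, such as Rps15a at 5158 bases, Rps20 at 3446 bases and Mrpl11 at 2882 bases, since FPKM divides by that length. The median listed length was 733 bases for the standard cytosolic and 1057 bases for the mitochondrial members.

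Mrps6, a small subunit protein, was the highest mitochondrial member and took part in the group's rise. It stood at 219, 257 and 229.7 FPKM on day 0, 312, 319 and 320.3 FPKM on day 4 and 339, 324 and 318 FPKM on day 8. All later samples lay above all day 0 samples. The early rise was 0.50 ± 0.053 (log2 fold change ± SE) and the late difference 0.09 ± 0.052, with edgeR adjusted p of 3.7e-07 and 0.18. A share of 13.8% of its 50-base stretches also occurred in Slc5a3, a gene that shares transcript sequence with it and had log2 fold changes of 0.46 and -0.20 in the same phases.

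The stalk of the ribosome draws in the translation factors. Rplp0 anchors the cytosolic stalk and is also, as 36B4, the reference gene of the study's qPCR. It stood at 2144, 2213 and 2181 FPKM on day 0, 1765, 1913 and 1845 FPKM on day 4 and 1438, 1389 and 1409.6 FPKM on day 8. No 2 days overlapped. The change on the log2 scale was -0.18 ± 0.046 in the early and -0.34 ± 0.047 in the late phase, and -0.51 ± 0.047 over the whole process (edgeR adjusted p = 5.5e-08). Its partner Rplp1 fell by 0.40 over the process on the log2 scale. Rplp2, the other stalk protein, was higher on day 4 than on the days beside it, at 837, 807 and 842 FPKM on day 0, 922, 979 and 1106 FPKM on day 4 and 663, 617 and 677 FPKM on day 8. It rose by 0.34 ± 0.061 and then changed by -0.57 ± 0.061 (log2 fold change, edgeR adjusted p of 0.00011 and 1.2e-06). A share of 30.7% of its 50-base stretches also occurred in Wdr89, whose own log2 fold changes of 0.02 and 0.09 did not pass.

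The mitochondrial stalk gave the largest called rise of all members. Mrpl12, which also binds the mitochondrial RNA polymerase, stood at 50.5, 54.2 and 49.1 FPKM on day 0, 112, 135 and 148 FPKM on day 4 and 141, 141 and 142 FPKM on day 8. Every later sample was above 2 times every day 0 sample, and day 4 spread widely around the day 8 values. On the log2 scale it rose by 1.43 ± 0.079 early and by 1.58 ± 0.079 over the process (edgeR adjusted p of 1.2e-10 and 3.3e-11). Mrpl10, its anchor on the large subunit and the counterpart of Rplp0, rose by 0.53 ± 0.053 in the early phase and stood near the group.

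Departure from the group was measured by the same model with library sizes scaled on the members of the group, so that no change means moving with the group, and a member departed at an adjusted p under 0.05 and a distance above 1.5-fold. From the mitochondrial group 2 members departed in the early phase, Mrpl12 and Mrpl20, none in the late phase, and 2 over the process, Mrpl12 and Mrpl34. Measured against the same reference, 48.6%, 14.3% and 54.7% of all genes departed in the 3 comparisons. From the cytosolic group 1, 2 and 2 of 90 members departed, beside 32.7%, 15.6% and 35.1% of all genes. At the adjusted p alone, with no minimum distance, 42, 12 and 50 mitochondrial and 35, 17 and 43 cytosolic members differed from their group. Against the same references 80.6%, 42.2% and 84.1% of all genes differed from the mitochondrial and 66.7%, 48.6% and 69.5% from the cytosolic group. In the late phase, where no mitochondrial member passed the distance of 1.5-fold, those 12 are the count at the adjusted p.

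Mrpl12 lay 0.94 above its group on the log2 scale in the early phase and 1.05 above it over the process. Mrpl20, a large subunit protein, stood at 38.1, 43.7 and 42.1 FPKM on day 0, 72.7, 87.5 and 91.6 FPKM on day 4 and 82.8, 83.7 and 78.3 FPKM on day 8. It lay 0.61 above the group in the early phase and 0.58 above it over the process, just under the distance asked for. Mrpl34, a small protein of the large subunit, stood at 39.9, 46.0 and 43.6 FPKM on day 0, 82.3, 84.3 and 91.0 FPKM on day 4 and 92.1, 85.2 and 85.6 FPKM on day 8. It lay 0.58 above the group in the early phase and 0.61 above it over the process, so that in each comparison 1 of the 2 genes lay just inside the distance asked for and the other just outside it. Their late log2 fold changes of 0.00 ± 0.075 and 0.07 ± 0.059 did not pass. With 1 reference library left out, day 0 replicate 1, 1 member departed in the early phase and 1 over the process, and without day 8 replicate 1, 1 departed over the process. With the summed counts of the group as the reference the count was also 1 in both.

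**Figure D3:**
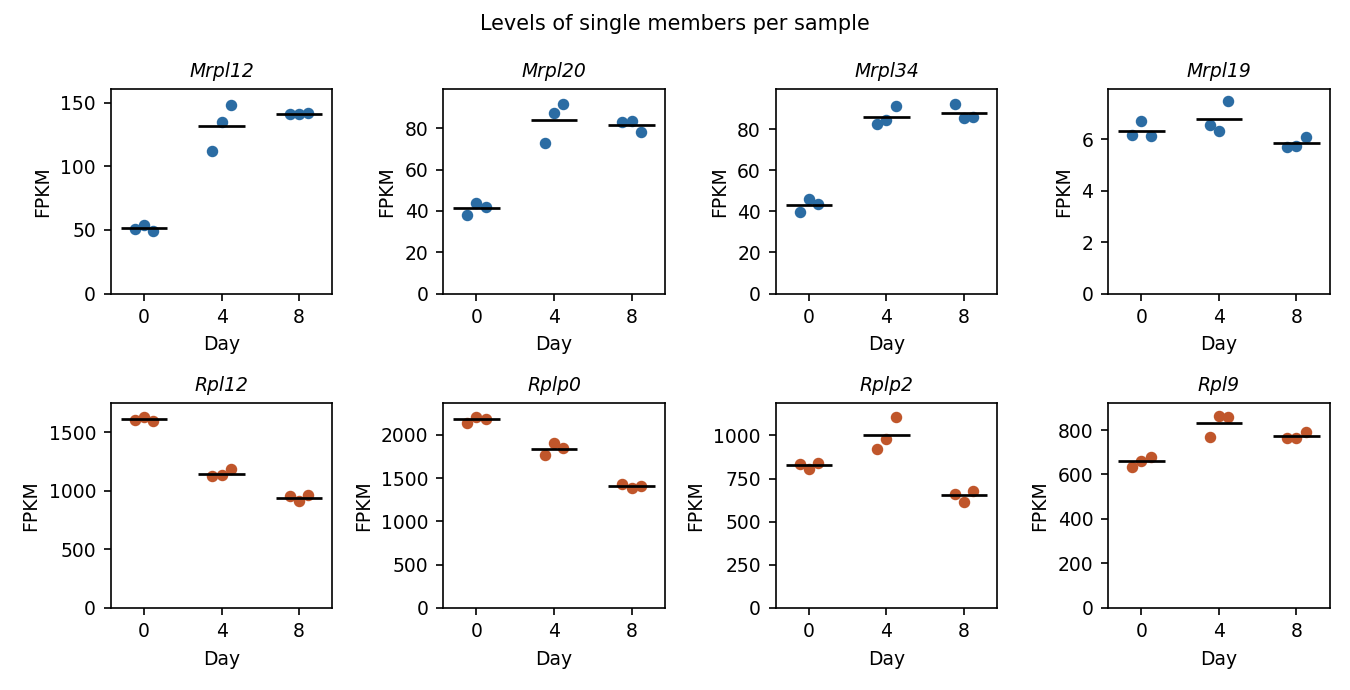
Level in FPKM of 4 mitochondrial (blue, upper row) and 4 cytosolic (orange, lower row) members in each of the 9 samples, with black lines at the mean of each day (n = 3); the axes start at 0 and differ between genes. Mrpl12, Mrpl20 and Mrpl34 step up between days 0 and 4 and then hold, and Mrpl19 has day means of 6.33, 6.80 and 5.85 FPKM. Rpl12 and Rplp0 fall, Rplp2 is highest on day 4 and Rpl9 is higher on both later days.

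Mrpl13 and Mrps28 were chosen after their values were seen, for a rise that lay mainly in the late phase, and Mrpl42 was among the members over 2-fold higher across the process. Mrpl13 stood at 57.0, 60.5 and 55.7 FPKM on day 0, 50.6, 52.6 and 59.65 FPKM on day 4 and 71.8, 72.0 and 69.5 FPKM on day 8. Its days 0 and 4 overlapped, and its rise of 0.43 ± 0.061 (log2, edgeR adjusted p = 2.7e-05) fell in the late phase. Mrps28 also rose mainly late, by 0.40 ± 0.079, from 17.4, 17.3 and 19.2 FPKM on day 4 to 23.3, 22.2 and 23.5 FPKM on day 8. Mrpl42 rose in both phases, by 0.71 and 0.31, and over the process by 1.02 (edgeR adjusted p = 3.7e-09). Its levels were 46.3, 57.5 and 49.1 FPKM, then 77.4, 74.3 and 87.2 FPKM, then 94.4, 98.9 and 93.6 FPKM.

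The members that fell in the late phase were Mrpl9, Mrpl39 and Mrps27. Mrpl9, a large subunit protein, went from 20.9, 19.95 and 21.5 FPKM to 31.9, 32.6 and 37.98 FPKM and then to 25.4, 27.5 and 27.3 FPKM, and its log2 fold changes were 0.78 and -0.31 (edgeR adjusted p of 4.9e-08 and 0.0016). The 7 members that did not pass over the whole process were Mrpl2, Mrpl19, Mrpl23, Mrpl24, Mrpl47, Mrpl54 and Mrps9. Mrpl19, the lowest in level among them, stood at 6.16, 6.72 and 6.12 FPKM on day 0, 6.57, 6.34 and 7.49 FPKM on day 4 and 5.72, 5.73 and 6.10 FPKM on day 8. It rose early by 0.17 ± 0.070 on the log2 scale (edgeR adjusted p = 0.040), and its late log2 fold change of -0.17 ± 0.070 did not pass. Its log2 fold change over the process was 0.00 ± 0.071 and it lay 0.52 below the group, within 1.5-fold. Mrps18a, Mrps18b and Mrps18c descend from 1 bacterial protein and occupy different places in the mitochondrial ribosome. In the early phase Mrps18a rose by 0.49 ± 0.057 and Mrps18c by 0.28 ± 0.092, while the log2 fold change of Mrps18b was 0.04 ± 0.067 with an edgeR adjusted p of 0.59. The level of Mrps18b went from 81.2% ± 9.96 of that of Mrps18a on day 0 to 59.0% ± 1.78 on day 4 and 61.7% ± 1.40 on day 8 (SD, n = 3).

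No standard cytosolic subunit lay more than 1.5-fold from its group in any comparison. The members that did were 3 copies with reads in doubt. Rpl14-ps1 shared 78.3% of its 50-base stretches with Rpl14 and stood at 47.4, 87.0 and 81.8 FPKM on day 0, 28.45, 11.4 and 27.6 FPKM on day 4 and 43.55, 26.45 and 50.8 FPKM on day 8. Rps27rt shared 89.8% with Rps27 and was listed at 12.04, 0 and 24.1 FPKM, then at 12.2, 0 and 62.4 FPKM, and at 0 in all 3 samples of day 8. No fold is given for it. Rps19-ps3 shared 24.7% with Rps19 and went from 10.9, 13.55 and 13.2 FPKM to 5.61, 5.07 and 5.99 FPKM on day 8. The expected counts of these copies were not whole in all samples, that is, reads were divided between genes. Their calls also turned on single libraries, since the departures from the group numbered 2 early without day 4 replicate 2, and 1 over the process without day 0 replicate 3 or day 8 replicate 2. The falls of more than 2-fold over the process numbered 0 without day 8 replicate 2 and 1 without day 0 replicate 3, day 8 replicate 1 or day 8 replicate 3, and in the late phase 1 rise above 2-fold was called without day 4 replicate 1, day 4 replicate 3 or day 8 replicate 2. Among members with listed transcripts, 8 of 90 cytosolic and none of 77 mitochondrial shared more than 20% of their stretches with another listed gene, and 74 and 11 did with any gene of the GENCODE annotation, which holds many pseudogenes. These 90 are not the 90 tested. Rpl31-ps12, Rpl32l, Rpl34-ps1, Rpl37rt and Rps15a-ps6 had no such transcript, so stretches shared with them were not measured. The count of 8 can thus be too low. Rpl34, Rpl31 and Rpl37 showed 0% shared with listed genes, but their expected counts were whole in 0, 1 and 0 of the 9 samples.

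The largest falls among standard subunits over the whole process were in Rpl12, Rps20, Rplp0 and Rpl3. Of these, Rps20 and Rpl3 were named after their values were seen, Rpl12 came in through its counterpart pair, which was itself picked by the size of its difference, and Rplp0 is a stalk protein named as such. Rpl12, a protein of the stalk base, stood at 1605, 1631 and 1600.2 FPKM on day 0, 1124, 1133 and 1185 FPKM on day 4 and 953, 912 and 965 FPKM on day 8. Its days did not overlap, and its log2 fold change over the process was -0.66 ± 0.045 (edgeR adjusted p = 1.5e-09), 0.44 below the group. Rps20, a small subunit protein, changed by -0.64 ± 0.053, and went from 127, 139 and 141 FPKM to 84.55, 77.1 and 80.04 FPKM. Rpl3, which lies close to the peptidyl transferase centre, changed by -0.50 ± 0.046, mostly in the late phase (-0.38 ± 0.046).

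The 3 cytosolic members that rose over the process were Rpl9, Rpl37a and Rpl7l1. Rpl9, a large subunit protein, stood at 634, 663 and 680.2 FPKM on day 0, 769, 865 and 859.9 FPKM on day 4 and 765, 764 and 789.9 FPKM on day 8. All later samples were above all day 0 samples. On the log2 scale it rose by 0.40 ± 0.053 early and by 0.34 ± 0.053 over the process (edgeR adjusted p of 4.6e-06 and 2.5e-05), which put it 0.56 above the group, the nearest of the standard subunits to the distance of 1.5-fold. Rpl37a rose early by 0.39 ± 0.051 and fell late by 0.26, on the log2 scale.

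The expressed paralogs were set beside the genes they resemble, without a test of the difference. Rpl7l1 rose by 0.29 ± 0.049 over the process while Rpl7 changed by -0.19 ± 0.049, and its level went from 5.32% ± 0.0449 of that of Rpl7 on day 0 to 7.38% ± 0.135 on day 8. Rps27l, a target of p53, stood at 95.6, 98.9 and 102 FPKM on day 0 and 63.0, 66.6 and 64.3 FPKM on day 8, a log2 fold change of -0.50 ± 0.063, while that of Rps27 was -0.17 ± 0.043. The level of Rpl22l1 was 68.5% ± 5.37 of that of Rpl22 on day 0 and 85.2% ± 3.59 on day 8, with no call for Rpl22l1 itself and a fall of 0.24 for Rpl22. Rpl36al went from 19.7% ± 1.51 to 27.7% ± 1.68 of Rpl36a.

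Each protein of 1 ribosome was set beside its counterpart in the other in 27 families of common descent. These are the fold changes of the same members, so the pairs are a description and no separate support for the difference between the groups. All 77 mitochondrial members lay above the cytosolic median in the early phase and over the process, so high counts of pairs largely follow from that. The mitochondrial member had the higher log2 fold change in 27 of 27 families in the early phase, in 25 of 27 in the late phase and in 27 of 27 over the process, with median differences of 0.50, 0.18 and 0.73. The widest were Rpl27a beside Mrpl15 and Rpl5 beside Mrpl18, each 1.26 apart over the process. Rpl5, which carries the 5S rRNA with Rpl11, went from 352, 365 and 364 FPKM to 245, 234 and 244 FPKM, and Mrpl18 from 26.3, 26.9 and 28.3 FPKM to 44.5, 46.6 and 39.8 FPKM. Rpl12 and Mrpl11 were 1.05 apart. The narrowest were Rpl8 beside Mrpl2 at 0.16 and Rpl26 beside Mrpl24 at 0.27. Mrpl2 and Mrpl24 did not pass over the process, and neither did Rpl8 or Rpl26.

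**Figure D4:**
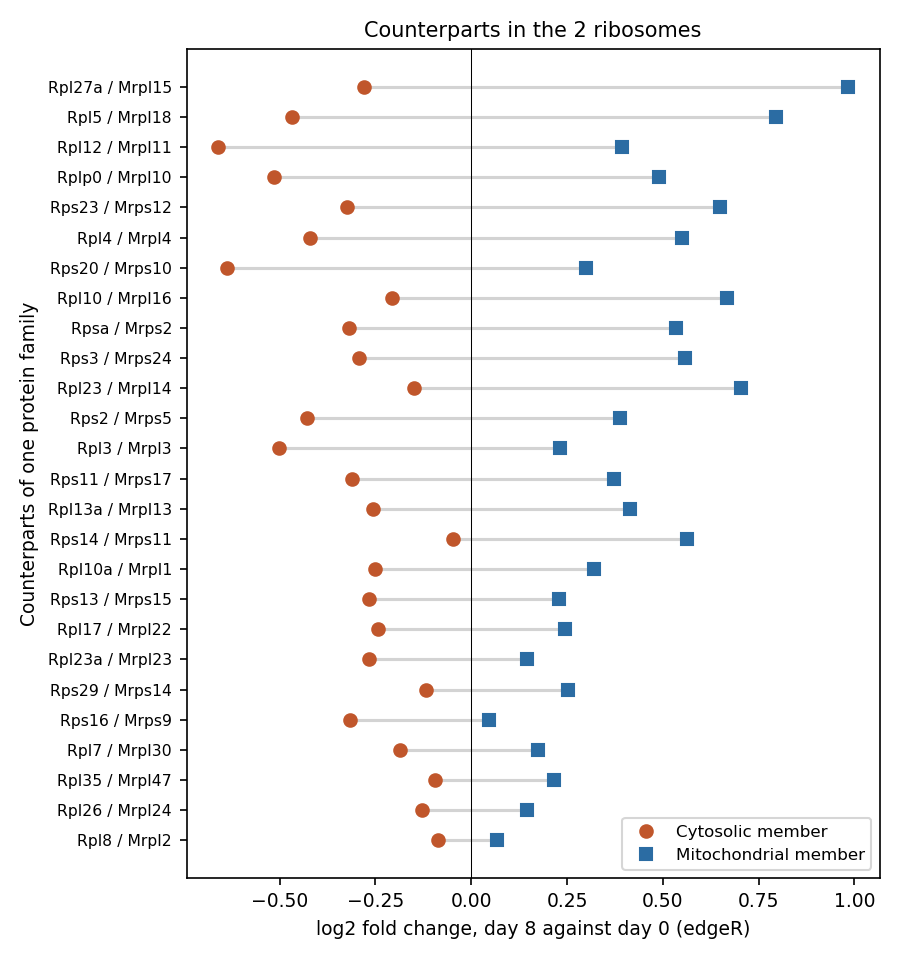
Log2 fold change between day 0 and day 8 (edgeR) of the cytosolic (orange circle) and mitochondrial (blue square) member of 26 protein families, ordered by the distance between them. The mitochondrial member lies to the right in each of the 26 families drawn, with distances between 0.16 and 1.26.

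Genes that belong to either ribosome but not to the symbols of the rule included Fau and Rack1 on the cytosolic side, whose values do not stand for a list. Fau carries a small subunit protein fused to a ubiquitin-like one and had a whole-process log2 fold change of 0.01. Rack1, a scaffold on the small subunit, changed by -0.30 (edgeR adjusted p = 2.9e-05). On the mitochondrial side 6 of 7 such genes rose over the process, beside 34.8% of all genes tested, and the seventh, the peptide release protein Ict1, had a log2 fold change of 0.14. Dap3, a GTP-binding protein of the small subunit, went from 14.6, 15.1 and 14.6 FPKM to 19.0, 18.3 and 18.8 FPKM. Ptcd3 rose early by 0.84 and fell late by 0.34, and Chchd1 rose late by 0.34.

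Among the genes that build or serve the cytosolic ribosome, those of ribosome biogenesis fell more often than they rose in each comparison. Of 59 tested, 25 fell and 15 rose in the early phase, 31 fell in the late phase, and 38 fell and 6 rose over the process, with medians of -0.13, -0.18 and -0.30. Of all genes tested 33.7% fell and 35.5% rose early, 22.7% fell late, and 36.2% fell and 34.8% rose over the process, and the shares of the list were 42.4% and 25.4%, 52.5%, and 64.4% and 10.2%. Npm1, a nucleolar chaperone, went from 441, 482 and 454 FPKM to 254, 257 and 249 FPKM, a log2 fold change of -0.74. Polr1a, the largest subunit of RNA polymerase I, changed by -0.79, and Fbl, the methyltransferase of rRNA, by -0.56. Of 44 cytosolic translation factors 22 fell and 7 rose over the process (50% and 15.9%). Eef1a1, the elongation factor that brings tRNA, changed by -0.45. The cytosolic tRNA synthetases had another time course, with 14 of 20 falling in the early phase (70%) and 12 rising in the late phase (60%, beside 22.5% of all genes). Aars, the synthetase for alanine, stood at 239, 234 and 226 FPKM on day 0, 119, 117 and 108 FPKM on day 4 and 168, 154 and 158 FPKM on day 8.

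Among the genes that serve the mitochondrial ribosome, 8 of 14 translation factors rose in the early phase and 1 fell (57.1% and 7.14%, beside 35.5% and 33.7% of all genes tested). Tufm, the mitochondrial elongation factor, went from 48.2, 51.5 and 49.9 FPKM on day 0 to 86.4, 97.05 and 99.3 FPKM on day 4 and 77.8, 77.0 and 78.8 FPKM on day 8, with log2 fold changes of 0.99 and -0.23. Tsfm, its exchange factor, rose early by 0.93. Of 27 assembly genes 15 rose early (55.6%), and over the process 16 rose and 2 fell (59.3% and 7.41%, beside 34.8% and 36.2% of all genes), the latter being Fastkd2 and Rpusd4. Malsu1, a factor of large subunit assembly, rose by 0.94 over the process. Of 17 mitochondrial tRNA synthetases 14 rose early (82.4%), with a median of 0.40, and 4 fell late, with a median of -0.06. Their late share of 23.5% was near the 22.7% of all genes. Of 10 genes of mitochondrial DNA transcription and replication 7 rose early (70%) and 4 fell late (40%), among them Polrmt, the RNA polymerase of mitochondria, with log2 fold changes of 0.48 and -0.25. Over the process 4 of the 10 rose and none fell, and their share of 40% was near the 34.8% of all genes that rose. Tfam, which packs mitochondrial DNA, had an early log2 fold change of 0.07 that did not pass.

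**Figure D5:**
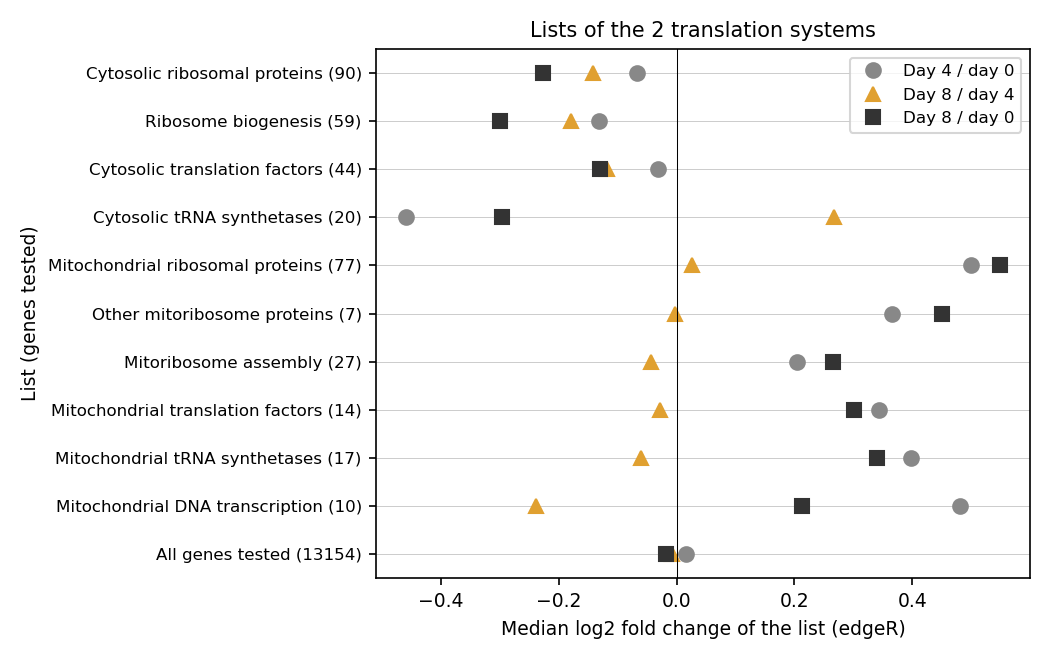
Median log2 fold change (edgeR) of the 2 groups of ribosomal protein genes and of 8 lists of genes that serve them, with all genes tested at the bottom; circles are day 4 against day 0, triangles day 8 against day 4 and squares day 8 against day 0, and the number of genes tested is in parentheses. The mitochondrial lists lie to the right in the early phase, where the 77 mitochondrial ribosomal proteins stand at 0.50, and near or left of 0 in the late phase.

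Of 20 genes known to regulate either set, 9 rose and 7 fell in the early phase (45% and 35%, beside 35.5% and 33.7% of all genes tested). Esrra, a nuclear receptor that drives mitochondrial genes, went from 14.1, 13.1 and 14.6 FPKM on day 0 to 24.95, 28.1 and 30.5 FPKM on day 4 and 29.0, 30.7 and 29.97 FPKM on day 8. Its coactivator Ppargc1b rose from 0.61, 0.94 and 0.81 FPKM to 2.63, 2.94 and 3.42 FPKM on day 4, an early rise of 3.998-fold, whereas Ppargc1a changed by -0.59 early and 0.98 late. Nrf1 changed by -0.38 early and Gabpa, the ETS factor of mitochondrial promoters, by -0.24. Myc, which drives ribosome biogenesis, stood at 35.2, 41.0 and 35.9 FPKM on day 0 and at 21.7, 22.1 and 22.8 FPKM on day 8, a log2 fold change of -0.64 (edgeR adjusted p = 5.4e-07). Of 11 genes in common use as references, 2 rose and 6 fell over the process, beside 34.8% and 36.2% of all genes tested. Rplp0, Rpl13a and Rps18 are members of the cytosolic group among them. Gapdh rose by 1.82, Actb changed by -0.51, and the log2 fold changes of Ppia and Tbp were -0.06 and -0.03 with no call.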

How the data were processed

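The authors removed reads of low quality, mapped the rest with HISAT/Bowtie2 and quantified genes with RSEM; the genome build is not given in the sources used here. The deposited expected counts are RSEM's estimates, and 29.8% were not whole numbers within a tolerance of 0.005. The deposited FPKM were scaled by the authors to gene length and depth. Expected counts were rounded and fitted in edgeR 4.0.16 (R 4.3.3) with filterByExpr by day, TMM factors and 1 coefficient per day over all 9 samples; the biological coefficient of variation was 0.0538. Departures used size factors computed on the members of a group. P-values were Benjamini-Hochberg adjusted over all genes tested. The scripts were tested on simulated data. Alternatives used DESeq2 1.42.0 and limma 3.58.1 on log2(FPKM + 1), other scaling, filters and left-out samples. Members and lists were chosen with earlier results of these data known. Named were departing and over 2-fold members, the 3 highest and lowest of a group, the stalk, paralogs, 6 counterpart pairs and up to 4 genes per list. More were named among the regulators and the reference genes, and some members were named after their values were seen. Replicate numbers did not pair the samples. Shared stretches are 50-base words of the reference transcripts. The values of 2 single genes are not reported here, and the counts of groups include them.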

Additional observations from a re-analysis of the deposited data

How the results depend on the processing

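The direction of the early and whole-process medians of both groups was the same under every alternative. With library sizes taken as they are, limma on log2(FPKM + 1) and limma on log2(FPKM + 0.1), the cytosolic median was -0.1328, -0.1310 and -0.1316 early and -0.3392, -0.3383 and -0.3390 over the process, and the mitochondrial median 0.4376, 0.4204 and 0.4346 over the process. The late mitochondrial median turned to -0.0195, -0.0145 and -0.0146, with 6 members higher and 6 lower under each, and 2 were called above 2-fold over the process. Limma called 6 cytosolic members higher early and 0 higher late, as DESeq2 did late. Cytosolic falls of more than 2-fold numbered 0 late and 1 over the process with at least 10 counts in every sample, limma or separate models, and 0 in all 3 comparisons among the standard subunits, where 0 rose late. The causes of these differences were not tested. Departures from the cytosolic group numbered 1 late and 1 over the process with the count filter or separate models. Departures from the mitochondrial group numbered 1 early and over the process with summed counts as the reference.

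The labels number the replicates alike at each day, but samples of 1 number did not deviate together, with correlations from -0.0348 to 0.0750. With the replicate number as a block, 2 members departed from the cytosolic group early, and no other count of the groups moved by over 1.5 times. Leaving out 1 sample at a time gave an early cytosolic median from -0.0911 to -0.0298, late cytosolic falls from 30 to 61 and rises from 0 to 1 (above 2-fold from 0 to 1), late mitochondrial rises from 4 to 15, falls from 1 to 7 and a median from -0.0055 to 0.0713. Cytosolic falls of more than 2-fold over the process ranged from 0 to 2. Departures from the cytosolic group ranged from 1 to 2 early and from 1 to 3 over the process, and those from the mitochondrial group from 1 to 3 in both.

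Of the shares, those of expected counts were 4.94, 4.41 and 3.82% for the cytosolic and 0.247, 0.338 and 0.338% for the mitochondrial group on days 0, 4 and 8. Among single members, 59 of 2617 alternative values passed the threshold where the reported one did not, 89 no longer passed it and none turned its direction. The SE of the early log2 fold change was 0.122 for Mrpl55, among the lowest members in level, 0.045 for Rpl12, and 0.278 for Rpl14-ps1, whose reads were divided with Rpl14.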
